A study of Homo sapiens with 4 samples.

Results

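The 10 genes described here are the TGF-beta ligands TGFB1, TGFB2 and TGFB3, the activin subunit gene INHBA, the receptors TGFBR1 and TGFBR2, the feedback inhibitors SMAD7, SKIL and PMEPA1, and the matrix protein gene LTBP2. They were chosen by gene name as members of 1 signalling pathway, with earlier results of these data known. All 10 were found among the 51103 genes of the deposited tables. Polyadenylated RNA was sequenced from cells labelled SCC-15, a human oral squamous cell carcinoma line, in 2 libraries with REEP6 overexpression (REEP6) and 2 negative control libraries (NC). REEP6 is a membrane protein of the endoplasmic reticulum. The overexpressing cells were made with a lentivirus and harvested in Trizol at 48 h, the harvest time given for all 4 libraries. The sources used here do not give the vector of the control cells, the promoter that drove REEP6 or whether the cells were 1 clone. Nothing in the labels ties the 2 replicates of a group to different cultures. The p-values therefore reflect only how far these libraries lay apart, and that spread may be technical.

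TGF-beta ligands are secreted as latent dimers bound to their own propeptides, and latent TGF-beta binding proteins tether them to the matrix. Once released, a ligand joins the type II receptor TGFBR2 and the type I receptor TGFBR1, which phosphorylates SMAD2 and SMAD3. These move to the nucleus with SMAD4 and switch on targets that include the pathway's own inhibitors. In epithelial and carcinoma cells the pathway is known for slowing growth and for promoting a mesenchymal cell state.

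The libraries held between 12856256 and 15208629 counts assigned to genes. REEP6 itself was at 20.0 and 20.9 FPKM in REEP6 libraries, against 11.1 and 12.6 FPKM in NC libraries (FPKM, a count scaled by gene length and by the library's total count), a log2 fold change of 0.82 ± 0.108 (SE, edgeR adjusted p 0.00119). The overexpressed gene thus rose only 1.76-fold, and 7.67% of all tested genes had a larger absolute log2 fold change. Markers of squamous epithelium went against the cell line's label. Of 11 epithelial markers listed, 8 were under 1 FPKM in every library, among them KRT5, KRT14, TP63 and CDH1. KRT6A and DSG3 had 0 counts, whereas KRT8 stood between 164 and 183 FPKM. The 3 tested, KRT8, KRT18 and EPCAM, are genes of simple epithelium and not specific to squamous cells. Of these, KRT18 rose, at 221 and 231 FPKM in REEP6 libraries, against 178 and 182 FPKM in NC libraries (edgeR adjusted p 0.0123). KRT8 and EPCAM were not called. Of 10 fibroblast markers 4 were tested (COL3A1, LUM, PDGFRB and POSTN, the last through its NC libraries only) and all 4 fell. PDGFRA of the same list was not tested and went the other way without overlap, at 0.986 and 1.06 FPKM in REEP6 libraries, against 0.663 and 0.709 FPKM in NC libraries. The summed level of the fibroblast list was 18.3 and 18.1 FPKM in REEP6 libraries, against 36.6 and 34.5 FPKM in NC libraries, with FAP at 0 counts and COL1A2, DCN and THY1 under 0.05 FPKM in every library. The summed levels of endothelial, leukocyte and melanocyte markers were each under 1 FPKM in every library. The part of the marker levels in the changes below was not tested, and in bulk RNA fewer cells of a type and less RNA per cell cannot be told apart.

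With REEP6 overexpression the 10 genes did not move as a block: PMEPA1 and TGFB1 rose, while TGFB2, SKIL and TGFBR1 fell. Ligand genes and feedback genes were each divided, with members called in opposite directions. No called change reached 2-fold. A gene was tested when it had at least 1 FPKM in at least 2 of the 4 libraries, and 9 of the 10 members were tested, INHBA through its REEP6 libraries only. EdgeR quasi-likelihood calls at a Benjamini-Hochberg adjusted p under 0.05 covered 5 of the 9, 2 higher and 3 lower, on a background of 25.1% of 13077 tested genes (10.9% higher, 14.2% lower). With libraries scaled to equal FPKM sums, all tested genes had a median log2 fold change of -0.14 and 19.0% of all calls were higher, against -0.0068 and 43.4% in the comparison as reported. The 5 members were called in the same direction under that scaling.

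Stretches of the promoters are shown for 2 pairs of members that moved in opposite directions, the ligands TGFB1 and TGFB2 and the feedback genes PMEPA1 and SKIL. Each line gives the 250 bases before a RefSeq start site on GRCh38.p14, read 5' to 3' on the gene's strand. Capitals mark CAGAC, taken here as the core that SMAD proteins bind, or its reverse complement GTCTG. Which stretches hold the core depends on this choice of letters.
TGFB1 (chr19:41353923-41354172, minus strand): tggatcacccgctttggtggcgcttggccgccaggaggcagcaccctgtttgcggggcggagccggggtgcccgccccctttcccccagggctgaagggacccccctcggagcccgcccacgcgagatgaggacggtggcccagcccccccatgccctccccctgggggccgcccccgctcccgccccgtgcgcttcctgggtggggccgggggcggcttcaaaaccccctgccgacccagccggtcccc
TGFB2 (chr1:218345086-218345335, plus strand): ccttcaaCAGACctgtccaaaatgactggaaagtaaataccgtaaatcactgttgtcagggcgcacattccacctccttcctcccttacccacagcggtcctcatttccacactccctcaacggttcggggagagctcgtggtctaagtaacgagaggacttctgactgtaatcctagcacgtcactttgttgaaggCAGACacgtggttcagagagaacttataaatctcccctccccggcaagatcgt
PMEPA1 (chr20:57710016-57710265, minus strand): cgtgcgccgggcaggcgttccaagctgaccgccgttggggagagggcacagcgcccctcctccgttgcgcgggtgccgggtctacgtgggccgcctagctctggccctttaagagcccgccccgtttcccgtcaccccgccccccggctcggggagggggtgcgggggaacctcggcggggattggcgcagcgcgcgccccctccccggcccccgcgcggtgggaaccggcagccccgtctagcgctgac
SKIL (chr3:170357465-170357714, plus strand): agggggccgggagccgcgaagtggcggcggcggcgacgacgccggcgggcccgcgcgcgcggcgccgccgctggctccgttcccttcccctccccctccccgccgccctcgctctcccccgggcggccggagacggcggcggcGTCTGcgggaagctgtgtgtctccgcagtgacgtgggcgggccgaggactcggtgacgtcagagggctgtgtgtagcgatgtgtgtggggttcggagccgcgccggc
The core was present in the promoters of TGFB2 (from -243 and -53, counted from the start site) and SKIL (from -107, as GTCTG), and was not found in these stretches of TGFB1 and PMEPA1. PMEPA1 has 3 other RefSeq starts, and the stretches before 2 of them hold the core (from -115 and from -71). For each of the 10 members the RefSeq start nearest to a principal GENCODE transcript start was then taken. The core was in 4 of these stretches (TGFB2, SKIL, TGFBR1 and SMAD7), against 38.0% of 34943 promoters of the same length. The TGFB2 start used lies 899 bases upstream of its GENCODE start, and those of SMAD7 and TGFB3 lie 1087 and 804 bases from theirs. The palindrome GTCTAGAC was in 0 members' stretches and 0.183% of promoters, the longer CAGA box AGCCAGACA (which contains the core) in 0 and 0.226%, and the AP-1 element TGANTCA in 0 and 6.59%, all searched on both strands. A match describes letters only and is not evidence of binding. The genes shown were picked by their direction of change, and a link between the core and direction was not tested.

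Among the ligands, TGFB1, the most widely expressed isoform, had the highest level per length. TGFB1 (ENSG00000105329, chromosome 19, 41301587 to 41353911, minus strand) stood at 54.1 and 63.8 FPKM in REEP6 libraries, against 37.0 and 46.2 FPKM in NC libraries. Both REEP6 libraries were above both controls, although libraries of 1 group differed by about as much as the gap between the nearest libraries of different groups. TGFB1 rose 1.44-fold (log2 fold change 0.53 ± 0.121 SE, edgeR adjusted p 0.0125), with log2 fold changes of 0.38 without NC replicate 1 and 0.72 without NC replicate 2. On log2(FPKM + 1) values TGFB1 was not called (limma adjusted p 0.0744), and over all settings tried its adjusted p lay between 3.6e-17 and 0.0768. The low end came from the edgeR fit with the replicate number as a block, and no label ties the numbers. On the opposite strand HNRNPUL1, an RNA-binding protein gene, shares 215 exonic bases with TGFB1. HNRNPUL1 had 5573 and 5024 counts in REEP6 libraries, against 3627 and 4072 in NC libraries, and also rose (1.48-fold, edgeR adjusted p 0.00255). How reads in the shared bases were assigned is not given in the sources used here, and their part in the TGFB1 value was not tested.

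TGFB2, the isoform known for needing the co-receptor betaglycan to bind TGFBR2 well, went the other way. TGFB2 (ENSG00000092969, chromosome 1, 218346235 to 218444619, plus strand) stood at 3.67 and 4.42 FPKM in REEP6 libraries, against 6.87 and 7.82 FPKM in NC libraries. The groups did not overlap, and the lowest control was well above the highest REEP6 library. TGFB2 fell 1.78-fold (log2 fold change -0.84 ± 0.135 SE, edgeR adjusted p 0.00275), and leaving out any 1 library gave log2 fold changes between -0.97 and -0.71.

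The mix of TGF-beta ligand transcripts is described here by shares within each library. TGFB2 made up 6.25% and 6.43% of the summed FPKM of the 3 TGFB genes in REEP6 libraries, against 15.5% and 14.4% in NC libraries. Per unit of length, TGFB1 was 14.7 and 14.4 times as abundant as TGFB2 in REEP6 libraries, against 5.39 and 5.90 times in NC libraries. This ratio is taken within each library and does not depend on its scaling. The summed level itself was 58.7 and 68.8 FPKM in REEP6 libraries, against 44.3 and 54.4 FPKM in NC libraries, so REEP6 replicate 1 and NC replicate 2 lay close together.

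**Figure D1:**
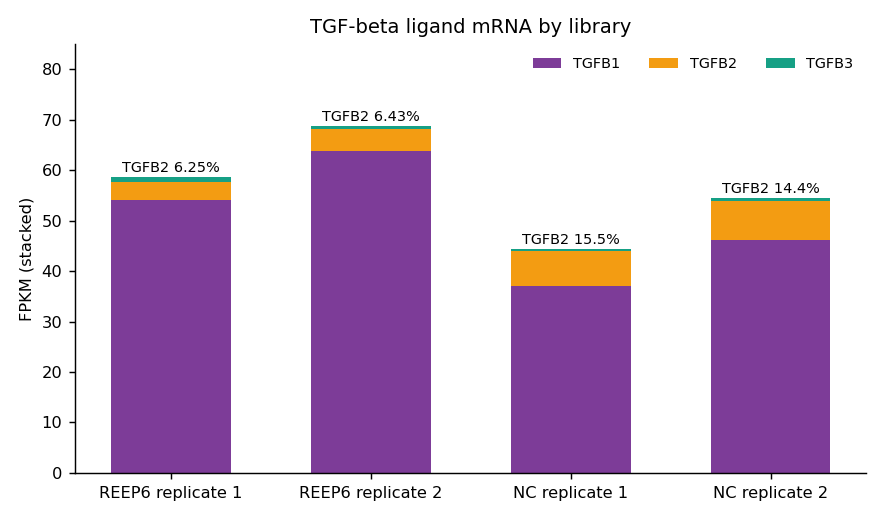
Stacked bars show FPKM of TGFB1, TGFB2 and TGFB3 in each of the 4 libraries, with the TGFB2 share of the sum above each bar. TGFB2 takes 6.25% and 6.43% in the REEP6 libraries and 15.5% and 14.4% in the NC libraries, and TGFB3 is a thin cap on every bar.

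TGFB3 and INHBA were near the limit of measurement. TGFB3 (ENSG00000119699, chromosome 14, 75958099 to 75982991, minus strand), known for its role in palate fusion, had 63 and 35 counts in REEP6 libraries, against 28 and 30 in NC libraries. It was under 1 FPKM in every library (0.969 and 0.535 in REEP6, 0.443 and 0.401 in NC) and was not tested in the main comparison. REEP6 replicate 1 stood apart from the other 3 libraries, and a fit with no filter on low values gave TGFB3 a log2 fold change of 0.88 ± 0.327 (SE, edgeR adjusted p 0.0519). INHBA (ENSG00000122641, chromosome 7, 41667168 to 41705834, minus strand) codes for the beta A subunit shared by activin A and inhibin A. It had 115 and 124 counts in REEP6 libraries, against 90 and 106 in NC libraries, or 1.05 and 1.12 FPKM against 0.843 and 0.840 FPKM. INHBA was not called (log2 fold change 0.39 ± 0.189 SE, edgeR adjusted p 0.155).

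Of the receptors, TGFBR1 fell and TGFBR2 was not called. TGFBR1 (ENSG00000106799, chromosome 9, 99104038 to 99154192, plus strand), the type I receptor kinase ALK5, stood at 20.3 and 19.8 FPKM in REEP6 libraries, against 26.5 and 26.2 FPKM in NC libraries. Libraries of 1 group lay close together and the groups were well apart. TGFBR1 fell 1.29-fold (log2 fold change -0.37 ± 0.082 SE, edgeR adjusted p 0.0114), but without REEP6 replicate 2 the call was lost (-0.34). The lowest adjusted p over all settings tried, 1.2e-08, came from the edgeR fit with the replicate number as a block. TGFBR2 (ENSG00000163513, chromosome 3, 30606502 to 30694142, plus strand), the type II receptor that binds ligand first, stood at 14.5 and 14.8 FPKM in REEP6 libraries, against 16.6 and 17.1 FPKM in NC libraries. Both REEP6 libraries were below both controls by a small margin. TGFBR2 had a log2 fold change of -0.18 ± 0.0879 (SE, edgeR adjusted p 0.169), and with equal FPKM sums it was called lower (-0.31, edgeR adjusted p 0.0336). Over all settings its adjusted p lay between 0.0336 and 0.493, and the fit with the replicate number as a block called it lower too. The ratio of TGFBR1 to TGFBR2 FPKM was 1.40 and 1.33 in REEP6 libraries, against 1.60 and 1.53 in NC libraries; whether the receptors changed by different amounts was not tested.

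The feedback inhibitors were divided. PMEPA1 (ENSG00000124225, chromosome 20, 57648392 to 57711536, minus strand), a transmembrane protein induced by TGF-beta that holds SMAD2 and SMAD3 away from the receptor, stood at 12.3 FPKM in each REEP6 library, against 6.59 and 6.81 FPKM in NC libraries. Its counts were 918 and 918 in REEP6 libraries, against 476 and 582 in NC libraries. The groups were far apart relative to the distance between replicates. PMEPA1 rose 1.87-fold (log2 fold change 0.90 ± 0.0933 SE, edgeR adjusted p 0.000467), and 5.80% of all tested genes had a larger absolute log2 fold change. Leaving out any 1 library gave between 0.88 and 0.96. NKILA, a long non-coding gene antisense to the PMEPA1 start that shares 343 exonic bases with it, had 21 and 28 counts in REEP6 libraries, against 7 and 5 in NC libraries. Its counts were small beside those of PMEPA1, and reads of the pair cannot be told apart without strand.

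SKIL moved against PMEPA1, although both are known targets of SMAD proteins. SKIL (ENSG00000136603, chromosome 3, 170357678 to 170396835, plus strand), also named SnoN, codes for a co-repressor that binds SMAD proteins on their target genes and is destroyed on TGF-beta signalling. It stood at 8.95 and 8.66 FPKM in REEP6 libraries, against 12.5 and 12.7 FPKM in NC libraries, with no overlap. SKIL fell 1.40-fold (log2 fold change -0.49 ± 0.0875 SE, edgeR adjusted p 0.00424), and its call held without any 1 library. Per unit of length, PMEPA1 was 1.38 and 1.42 times as abundant as SKIL in REEP6 libraries, against 0.527 and 0.537 times in NC libraries. The order of the pair by FPKM was thus reversed, with lengths of 5619 bases for PMEPA1 and 7782 for SKIL. By counts the pair was about equal in REEP6 libraries (PMEPA1 918 and 918, SKIL 922 and 896). In NC libraries SKIL had more counts (1250 and 1502, against 476 and 582 for PMEPA1).

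SMAD7 (ENSG00000101665, chromosome 18, 48919853 to 48952052, minus strand), the inhibitory SMAD that brings ubiquitin ligases to the receptor, stood at 8.17 and 7.75 FPKM in REEP6 libraries, against 9.10 and 8.75 FPKM in NC libraries. The REEP6 libraries lay just below the controls. SMAD7 was not called (log2 fold change -0.14 ± 0.0984 SE, edgeR adjusted p 0.336). LTBP2 (ENSG00000119681, chromosome 14, 74498170 to 74612378, minus strand), a fibrillin-binding member of its family that is known not to bind latent TGF-beta, stood at 14.3 and 12.3 FPKM in REEP6 libraries, against 13.5 and 11.4 FPKM in NC libraries. It was the only member whose groups overlapped, and its log2 fold change was 0.12 ± 0.111 (SE, edgeR adjusted p 0.463). The groups of the other 9 members did not overlap, 4 being higher and 5 lower with REEP6, on a background of 63.5% of tested genes (28.2% higher, 35.3% lower). The 4 higher include TGFB3, which was not tested and lies outside that background. They also include INHBA, which was tested through its REEP6 libraries only.

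**Figure D2:**
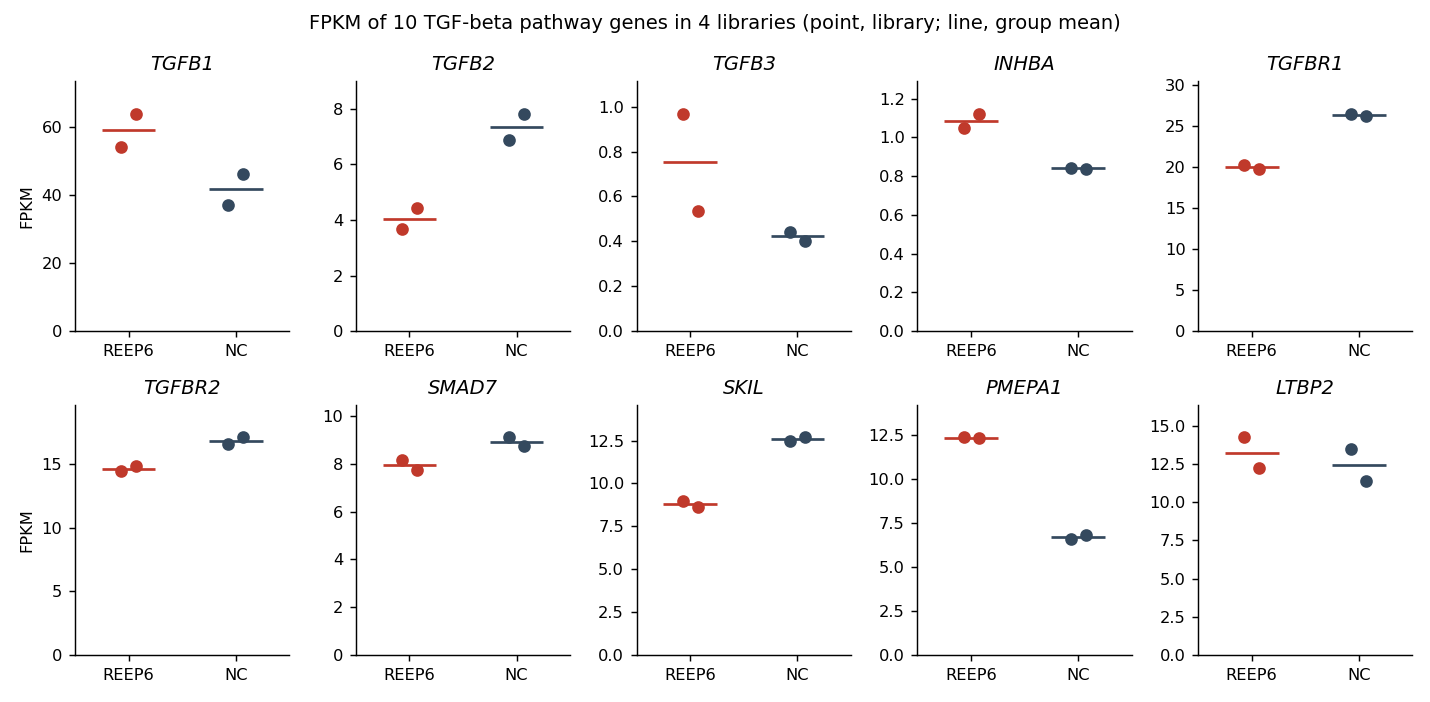
Each panel shows FPKM of 1 gene, with a point per library and a line at the group mean (REEP6 left, NC right, 2 libraries each). PMEPA1, SKIL and TGFBR1 show tight replicates and wide gaps, TGFB1 shows wide replicates, and the LTBP2 groups overlap.

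**Figure D3:**
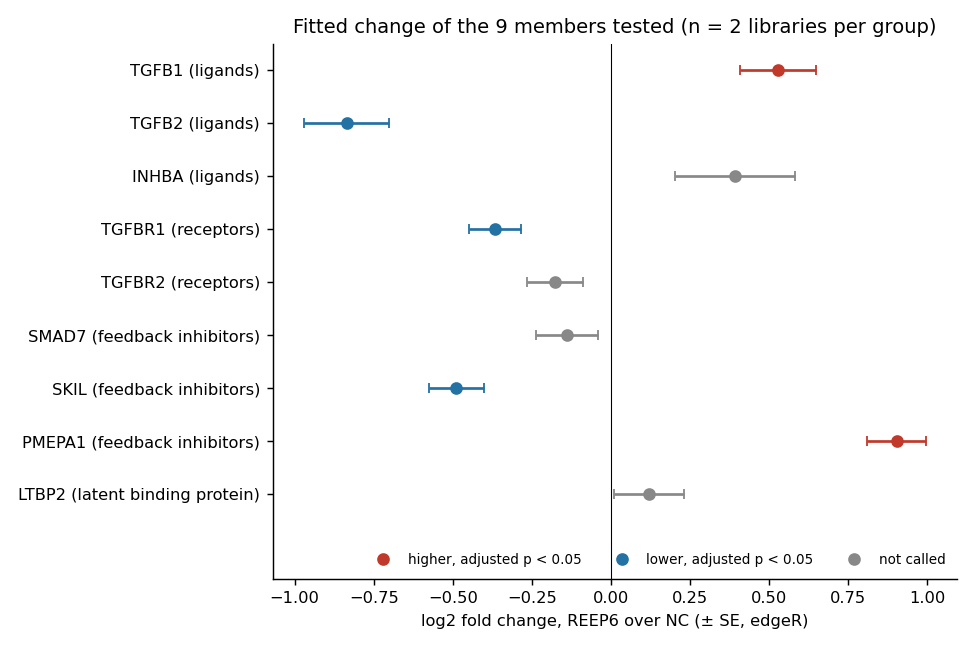
Points show edgeR log2 fold changes of the 9 tested members with bars of 1 standard error, grouped by role. PMEPA1 (0.90) and TGFB1 (0.53) lie above 0, and TGFB2 (-0.84), SKIL (-0.49) and TGFBR1 (-0.37) lie below it.

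**Figure D4:**
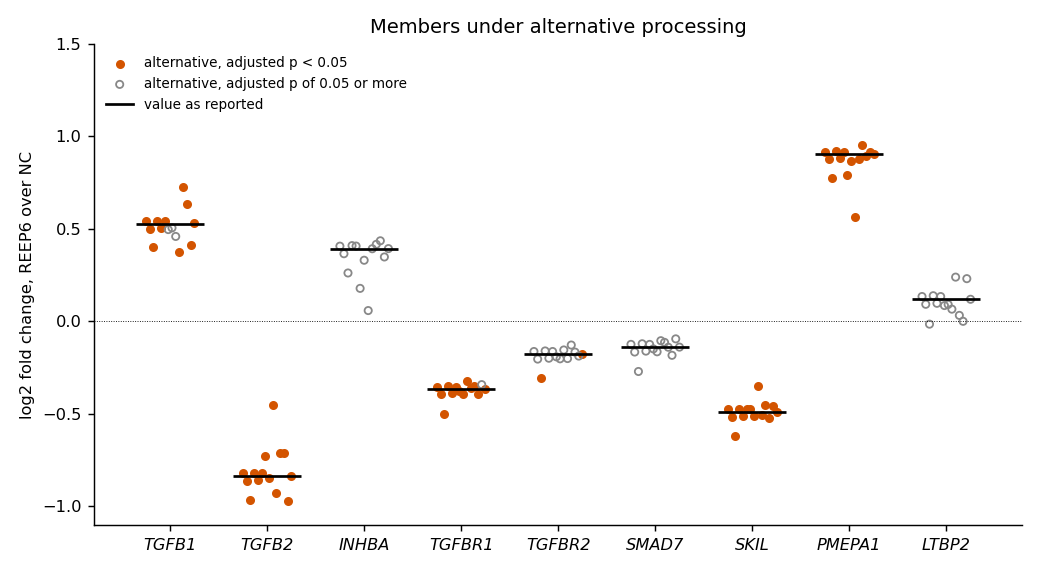
Dots show the log2 fold change of each tested member under every alternative processing setting (filled where the adjusted p is under 0.05), and bars show the value as reported. PMEPA1 stays between 0.57 and 0.96 and TGFB2 between -0.97 and -0.45, with every dot filled, while TGFB1, TGFBR1 and TGFBR2 have dots of both kinds.

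By level per length, TGFB1 came first with 58.9 ± 6.90 FPKM in REEP6 and 41.6 ± 6.46 FPKM in NC (SD, n = 2 each), followed by TGFBR1 and TGFBR2 in both groups. In REEP6 libraries LTBP2 (13.3 ± 1.41 FPKM, SD) and PMEPA1 (12.3 ± 0.0437 FPKM) then followed and did not differ beyond their spread, and neither did LTBP2 and TGFBR2 (14.7 ± 0.254 FPKM). SKIL, SMAD7 and TGFB2 came after them, and INHBA and TGFB3 were last. In NC libraries SKIL (12.6 ± 0.139 FPKM, SD) and LTBP2 (12.4 ± 1.44 FPKM) were next to each other and did not differ beyond their spread. SMAD7, TGFB2 and PMEPA1 followed, so PMEPA1 stood in place 5 with REEP6 and in place 8 in the controls. In NC libraries TGFB2 (7.35 ± 0.675 FPKM, SD) and PMEPA1 (6.70 ± 0.156 FPKM) did not differ beyond their spread. The FPKM length of each member was equal to the summed exon bases of its GENCODE release 29 model.

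Of 77 other pathway genes in 5 lists, 61 were tested, and 8 rose and 15 fell (37.7% called, against 25.1% of all tested genes). The lists were chosen with earlier results of these data known, so their shares cannot show an excess over that background. The median log2 fold change over the 61 was -0.13, and -0.0068 over all tested genes. Calls of 14 of these 23 genes (3 higher, 11 lower) held without any 1 library. The number of higher calls was 5 without NC replicate 1, 5 without REEP6 replicate 1 and 3 without REEP6 replicate 2. With libraries scaled to equal FPKM sums 4 were higher and 25 lower.

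Of 8 tested genes for tethering and releasing latent TGF-beta, 6 fell, 1 rose and 1 was not called (87.5% called, against 25.1% of all tested genes, of which 14.2% fell). This list, too, was chosen with earlier results known, so its share cannot show an excess. Their median log2 fold change was -0.53. LTBP1, which anchors latent TGF-beta to the matrix, stood at 0.979 and 1.05 FPKM in REEP6 libraries, against 2.73 and 2.62 FPKM in NC libraries. It fell 2.59-fold (edgeR adjusted p 0.000754). Its relatives LTBP3, at 24.8 ± 1.28 FPKM in REEP6 and 34.8 ± 2.15 FPKM in NC (SD, n = 2 each), and LTBP4, at 24.1 ± 2.15 FPKM in REEP6 and 33.5 ± 1.08 FPKM in NC, fell 1.38-fold and 1.36-fold. The LTBP4 call ended without REEP6 replicate 1 (edgeR adjusted p 0.0557). The 3 related genes that fell thus differed from LTBP2 in call, but the difference between them and LTBP2 was not tested.

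Of the genes for release of the ligand, ITGAV and THBS1 kept their calls without any 1 library. ITGAV, the alpha subunit of integrins that release latent TGF-beta, stood at 38.9 and 40.7 FPKM in REEP6 libraries, against 71.6 and 70.8 FPKM in NC libraries. It fell 1.75-fold (edgeR adjusted p 0.000387), and its partner ITGB8 fell 1.51-fold. The ITGB8 call ended without NC replicate 2 (edgeR adjusted p 0.0748) and with limma at each pseudocount (limma adjusted p 0.0985 to 0.103). THBS1, thrombospondin 1, which can activate latent TGF-beta, stood at 16.1 FPKM in each REEP6 library, against 31.7 and 29.5 FPKM in NC libraries, and fell 1.86-fold (edgeR adjusted p 0.000299). Another integrin subunit gene of this kind, ITGB6, was under 0.1 FPKM in every library and was not tested, and FURIN, the protease that cuts the TGF-beta precursor, was not called (log2 fold change -0.21). NRROS, known for tethering latent TGF-beta on myeloid cells, rose to 1.82 and 2.27 FPKM in REEP6 libraries, against 0.588 and 1.29 FPKM in NC libraries. The NRROS call ended without NC replicate 1 (log2 fold change 0.69) and without REEP6 replicate 2 (0.97). With equal FPKM sums (edgeR adjusted p 0.0553) and with limma at each pseudocount (limma adjusted p 0.0892 to 0.118) it was lost too.

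Of 9 genes of the activin family and its binding proteins 3 were tested and 1 was called (33.3%, against 25.1% of all tested genes). GDF11, a ligand that signals through activin receptors, rose 1.51-fold to 2.81 and 3.11 FPKM in REEP6 libraries, against 2.08 and 1.93 FPKM in NC libraries, and its call ended without REEP6 replicate 2 (edgeR adjusted p 0.0548). The GDF11 call also ended with limma at each pseudocount (limma adjusted p 0.069 to 0.0711). The inhibin alpha gene INHA (log2 fold change 0.09) and FSTL3, which binds activin (-0.11), were not called.

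Of 6 tested receptors and co-receptors 2 fell and 4 were not called, a share of 33.3% called that was near the background of 25.1%. BAMBI, a decoy receptor without a kinase domain, stood at 4.60 and 5.26 FPKM in REEP6 libraries, against 9.08 and 8.35 FPKM in NC libraries. It fell 1.73-fold (edgeR adjusted p 0.00652). ACVR2A, an activin type II receptor, fell 1.43-fold, a call that ended without NC replicate 2 (edgeR adjusted p 0.122) or without REEP6 replicate 1 (0.186), and with DESeq2 (adjusted p 0.052) and every limma fit. The co-receptors TGFBR3 (betaglycan, log2 fold change -0.16) and ENG (endoglin, -0.13) and the type II receptor ACVR2B (0.19) were not called.

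Among 19 tested SMAD genes and regulators 4 fell, 2 rose and 13 were not called, a share of 31.6% called that was near the background of 25.1%. The signal-carrying SMAD2, SMAD3 and SMAD4 were among those not called, with SMAD3 the most abundant at 22.8 ± 0.872 FPKM in REEP6 and 25.4 ± 0.222 FPKM in NC (SD, n = 2 each). SMAD6, an inhibitory SMAD that acts mainly on BMP signals, stood at 8.74 and 10.2 FPKM in REEP6 libraries, against 16.7 and 16.5 FPKM in NC libraries. It fell 1.72-fold (edgeR adjusted p 0.000935), unlike SMAD7, though the difference between the pair was not tested. The ubiquitin ligase gene WWP1 fell 1.51-fold and USP15, a deubiquitinase that acts on the receptor complex, fell 1.49-fold. PPM1A, a phosphatase of SMAD2 and SMAD3, fell 1.25-fold. Its call ended without any 1 of 3 libraries (log2 fold change -0.20 without NC replicate 2, -0.35 without REEP6 replicate 1 and -0.28 without REEP6 replicate 2). The PPM1A call also ended with DESeq2 (adjusted p 0.0883) and every limma fit. SKI, the co-repressor most like SKIL, rose 1.25-fold to 24.9 and 25.4 FPKM in REEP6 libraries, against 20.4 and 20.6 FPKM in NC libraries, and NEDD4L, a ligase for active SMAD2 and SMAD3, rose 1.31-fold. The SKI call ended without REEP6 replicate 1 (edgeR adjusted p 0.0946) or REEP6 replicate 2 (0.117), and the NEDD4L call without NC replicate 1 (0.0546), REEP6 replicate 1 (0.0645) or REEP6 replicate 2 (0.0549).

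Known target genes moved in both directions, with 4 of 25 tested higher, 3 lower and 18 not called, a share of 28.0% that was near the background of 25.1%. Vimentin (VIM), the intermediate filament of mesenchymal cells, stood at 289 and 294 FPKM in REEP6 libraries, against 204 and 226 FPKM in NC libraries, and rose 1.38-fold (edgeR adjusted p 0.00572). The metalloprotease gene ADAM19 stood at 5.11 and 5.33 FPKM in REEP6 libraries, against 2.85 and 2.72 FPKM in NC libraries, and rose 1.91-fold (edgeR adjusted p 0.000853). ANGPTL4, a secreted inhibitor of lipoprotein lipase, rose 1.79-fold and the fibronectin receptor subunit gene ITGA5 rose 1.30-fold. The ITGA5 call ended without NC replicate 1 (log2 fold change 0.33), REEP6 replicate 1 (0.40) or REEP6 replicate 2 (0.36). It also ended with equal FPKM sums (edgeR adjusted p 0.140), DESeq2 (adjusted p 0.0799) and every limma fit. Genes for actin-binding proteins fell, TPM1 1.53-fold and TAGLN 2.34-fold. TAGLN was low, at 1.08 and 0.940 FPKM in REEP6 libraries, against 2.68 and 2.15 FPKM in NC libraries. ZEB2, a repressor of E-cadherin, fell 2.46-fold to 0.512 and 0.666 FPKM in REEP6 libraries, against 1.47 and 1.49 FPKM in NC libraries, and passed the filter on low values through its NC libraries only. The ZEB2 call ended with limma on log2(FPKM + 1) and log2(FPKM + 0.1) (limma adjusted p 0.053 and 0.0672), with adjusted p over all settings between 1.1e-25 and 0.0672. The low end came from the edgeR fit with the replicate number as a block. CCN2, a matricellular protein gene widely used as a target of the pathway, was not called (log2 fold change -0.22 ± 0.13 SE).

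**Figure D5:**
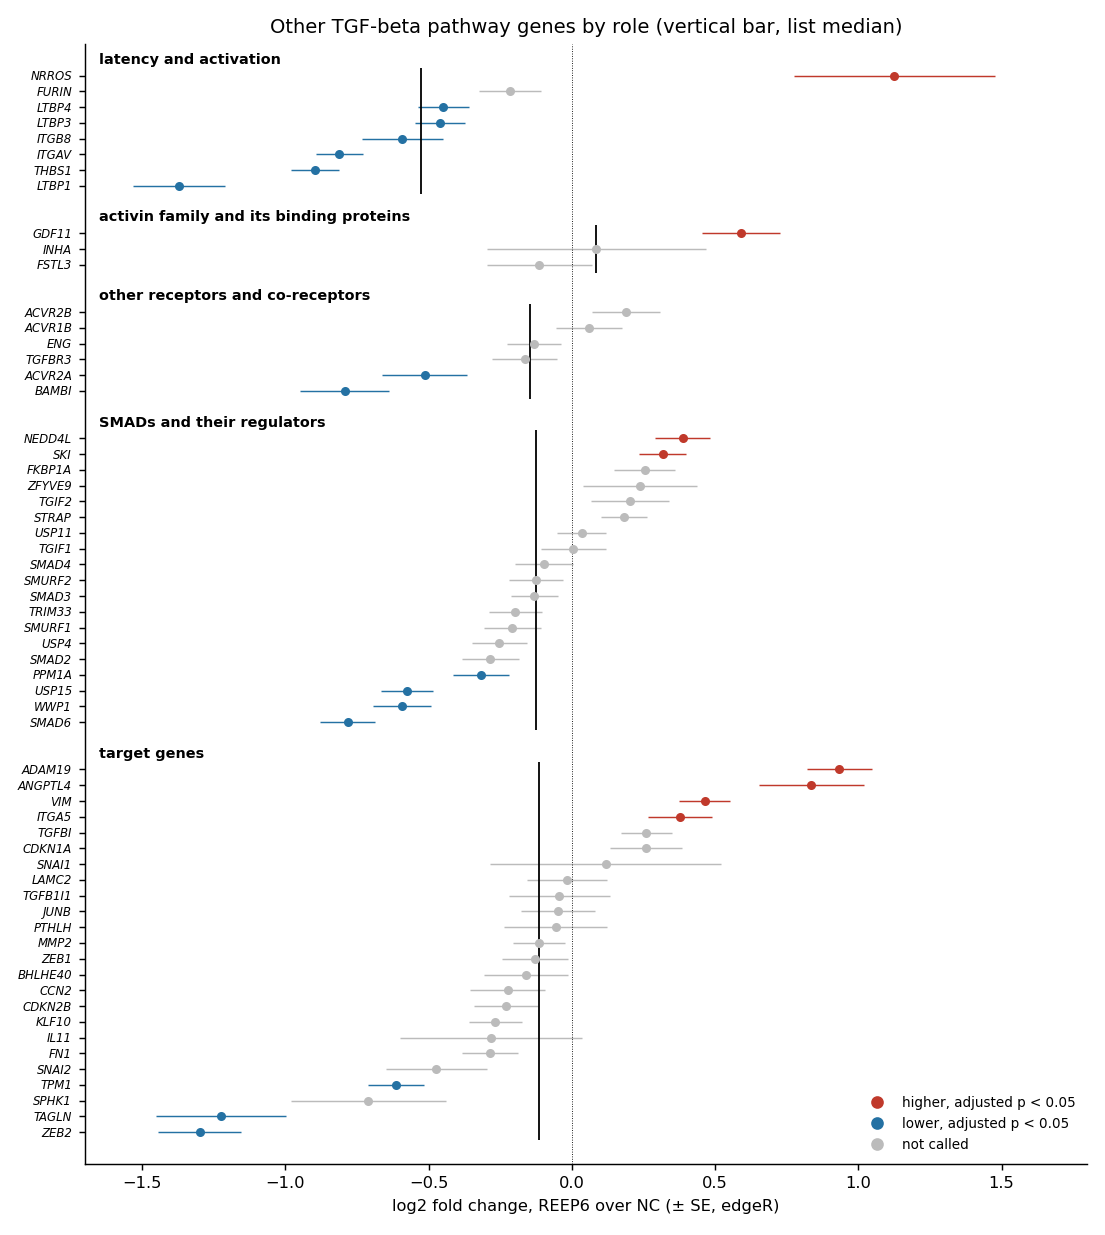
Points show edgeR log2 fold changes of all but 1 of the 61 tested pathway genes in 5 lists with bars of 1 standard error, and a vertical bar marks the median over each whole list. In the latency and activation list 6 called genes lie below 0 and NRROS lies above it, while the target genes spread to both sides of 0.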

How the data were processed

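Messenger RNA of 4 samples labelled SCC-15 was analysed; sample titles gave the groups (2 REEP6, 2 NC) and the replicate numbers. Per the labels' protocols, libraries were made with the NEBNext Ultra kit. The authors deposited a raw count and an FPKM value per gene and library. The submitters' processing notes list HISAT2, HTSeq 0.13.5 and GRCh38 without saying what each was used for, and the strand setting is not given in the sources used here. FPKM was the count divided by 1 length per gene and the library's total count for 100% of 29161 genes within a relative tolerance of 0.0001.

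Genes with at least 1 FPKM in at least 2 libraries (13077) were tested in edgeR 4.0.16 (R 4.3.3) by its quasi-likelihood method on counts with TMM scaling, fitting all 4 libraries with a group term alone (2 residual degrees of freedom). Two-sided p-values were adjusted by Benjamini-Hochberg over all genes tested, and calls needed an adjusted p under 0.05. EdgeR's common biological coefficient of variation came to 9.35%. The standard error is the log2 fold change over the square root of F. Replicates differed by more than counting noise (chi-square per degree of freedom 5.68 for REEP6 and 9.58 for NC). With 2 libraries a group, exact permutation tests cannot reach the threshold and none was run. Alternatives were limma 3.58.1 on log2(FPKM + pseudocount), DESeq2 1.42.0, other scalings and filters, leaving out each library and the replicate number as a block.

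The members and lists were chosen with earlier results of these data known. Named genes are the 10 members, REEP6 and up to 5 tested genes with the smallest p from each of 5 pathway lists. NRROS, ITGB8, ITGB6, FURIN, SMAD2, SMAD3, SMAD4, PPM1A, ANGPTL4, ITGA5, CCN2 (named CTGF in the tables) and the genes overlapping members were added after their values were seen. For 1 gene of the target list, which stays in the counts and the median, the values are not reported here. All 51103 identifiers matched GENCODE release 29 (GRCh38), the source of coordinates (1-based). Promoter sequences are from RefSeq (GRCh38.p14), which matched all 10 members.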

Additional observations from a re-analysis of the deposited data

How the results depend on the processing

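TGFB2, SKIL and PMEPA1 kept their direction and side of the threshold under all 14 alternative settings, with log2 fold changes of -0.97 to -0.45, -0.62 to -0.35 and 0.57 to 0.96; the ends nearest 0 came with limma on log2(FPKM + 5), whose pseudocount shrinks changes of low genes. REEP6 did so too (0.60 to 0.94). TGFB1 (0.38 to 0.72) lost its call with limma at each pseudocount (limma adjusted p 0.0743 to 0.0768) and TGFBR1 (-0.50 to -0.32) without REEP6 replicate 2. TGFBR2 gained a call with equal FPKM sums. INHBA, which was not tested at a minimum of 5 FPKM, and SMAD7 were not called under any setting run. LTBP2 changed sign with equal FPKM sums (-0.015). For the losses and gains the cause was not tested.

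Members called higher numbered 1 with limma on log2(FPKM + 1), log2(FPKM + 0.1) and log2(FPKM + 5) and at an adjusted p under 0.01. Pathway genes called higher numbered 4 with equal FPKM sums, 3 at a minimum of 5 FPKM (where fewer genes are tested), 3 with each limma fit and 2 at an adjusted p under 0.01, and 3 to 10 without any 1 library (5 without NC replicate 1 or REEP6 replicate 1, 3 without REEP6 replicate 2). Pathway genes called lower numbered 25 with equal FPKM sums. Over all genes, 1422 were called higher and 1854 lower. Higher calls numbered 661 with equal FPKM sums, 936 at a minimum of 5 FPKM, 634, 597 and 642 with limma at pseudocounts of 1, 0.1 and 5, and 495 at an adjusted p under 0.01, and 940 (without REEP6 replicate 1) to 1495 without any 1 library. Lower calls numbered 2824 with equal FPKM sums, 1233 with limma on log2(FPKM + 0.1) and 897 at an adjusted p under 0.01.

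With the replicate number as a block, 24 pathway genes were lower, 2957 genes were higher and 3062 lower in all, and TGFBR2 was called lower (-0.18, edgeR adjusted p 0.0363). Same-numbered libraries deviated together (r = 0.42 across 13077 genes), but with 2 pairs and no label that ties the numbers this does not show pairing. Depth limits TGFB3 most, at 28 to 63 counts per library.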
